A study of Mus musculus with 8 samples.

Results

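The semaphorins are guidance proteins, and the plexins and neuropilins are their receptors. Their genes were followed across cell types, ages and brain regions in nuclei of the mouse hippocampus and caudate putamen. Members were chosen by gene symbol: the 20 semaphorin genes of the mouse classes 3 to 7, the 9 plexins, the 2 neuropilins Nrp1 and Nrp2, and the 2 plexin domain containing genes Plxdc1 and Plxdc2. All 33 were among the 32285 genes of the count tables. Nuclei came from punches of the anterior hippocampus and of the caudate putamen (the dorsal striatum) in the left hemisphere of C57BL/6JN mice at 3 and at 21 months of age. There were 4 groups, hippocampus and caudate putamen at each age, with 2 libraries per group. The labels give no genetic change or treatment for any group. Each library pooled nuclei of 1 male and 1 female of the same age, and the labels do not say whether the regions were taken from the same mice. The p-values below therefore measure the spread between pooled libraries.

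Semaphorins of class 3 are secreted. Most of them bind a neuropilin, which holds the ligand, together with a class A plexin, which carries the signal into the cell, whereas Sema3e binds Plxnd1 directly. Classes 4 to 6 span the membrane and class 7 is anchored to it by a lipid. These bind plexins without a neuropilin: class 4 mostly class B plexins, class 6 class A plexins, and Sema7a Plxnc1. A plexin acts on small GTPases and on collapsin response mediators, and so on actin and microtubules. In the developing hippocampus and striatum the family is known for steering axons, placing synapses and patterning vessels. Plxdc1 and Plxdc2 share a domain with plexins but are not plexins, and were described as receptors for the secreted protein Serpinf1.

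After filtering, 97875 nuclei remained, 6387 to 17012 per library, with a median of 6664 to 11326.5 unique molecular identifiers (UMIs, counted RNA molecules) per nucleus. Clusters were named from marker genes without use of the 33 members, and each name below stands for a class that resembles that cell type (dentate granule-like, OPC-like and so on). A level is the UMIs of a gene in all nuclei of a class of a library, as counts per 1000000 UMIs (CPM), and levels are compared between classes within a gene, not between genes. Values written with ± are means and SD over the 4 libraries of a region. In each region 10 classes had at least 20 nuclei in every library. All defining markers of the class were detected in every library in 18 of these 20 region and class pairs, with 11 of 12 or more in the striatal interneurons and 8 of 9 or more in the mural cells. Detected means any UMI in the summed counts, and the same lists named the classes, so this is no test of the names. RNA of marker genes of the main neurons was also counted in glia. In the hippocampus the median marker gene of dentate granule neurons (8 of 8 detected) stood in glial and endothelial classes at 7.59% to 22.2% of its level in those neurons. The 8 genes summed stood at 69.5% to 75.1% of the neuronal sum in oligodendrocytes and at 29.0% to 38.3% in microglia. These sums were led by Dock10. It stood at 271% to 285% of its neuronal level in oligodendrocytes and at 99.7% to 113% in microglia. The lowest gene of the list in oligodendrocytes, Glis3 or Tiam1, stood at 2.10% to 5.32%. In the caudate putamen the median marker gene of medium spiny neurons (7 of 7 detected) stood at 10.8% to 23.7% of its level in those neurons in glia and at up to 40.9% in endothelial cells. The files hold no empty droplets, so free RNA was not measured. Pairs of libraries shared 17 to 74 barcodes, at most 0.548% of the smaller library. The header of 1 library, young caudate putamen replicate 2, names another version of the counting program than those of the other 7. Whether introns were counted in each library is not given in the sources used here, and in nuclei that setting bears on what a count holds.

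In the hippocampus, 31 of the 33 members reached 10 CPM in at least 1 of the 10 classes, and in the caudate putamen 30 did. Sema3b and Sema3f stayed below 10 CPM in all 10 classes of both regions, and Plxna3 did so in the caudate putamen. At least 4 times the mean of the other classes was reached by 22 of the 31 members in hippocampus and by 22 of the 30 in caudate putamen. The same rule held for 36.1% of the 13864 genes that reached 10 CPM in hippocampus and for 32.9% of 13759 in caudate putamen. The leading class was non-neuronal for 19 of the 22 in hippocampus and for 17 of the 22 in caudate putamen. That share was not counted over all genes, so it cannot be read as a trait of the family. These are descriptions with no test, because the classes were defined from the same nuclei. The order of classes given below (highest, leading, next) holds among these 10 classes of a region, and smaller classes follow after them.

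**Figure D1:**
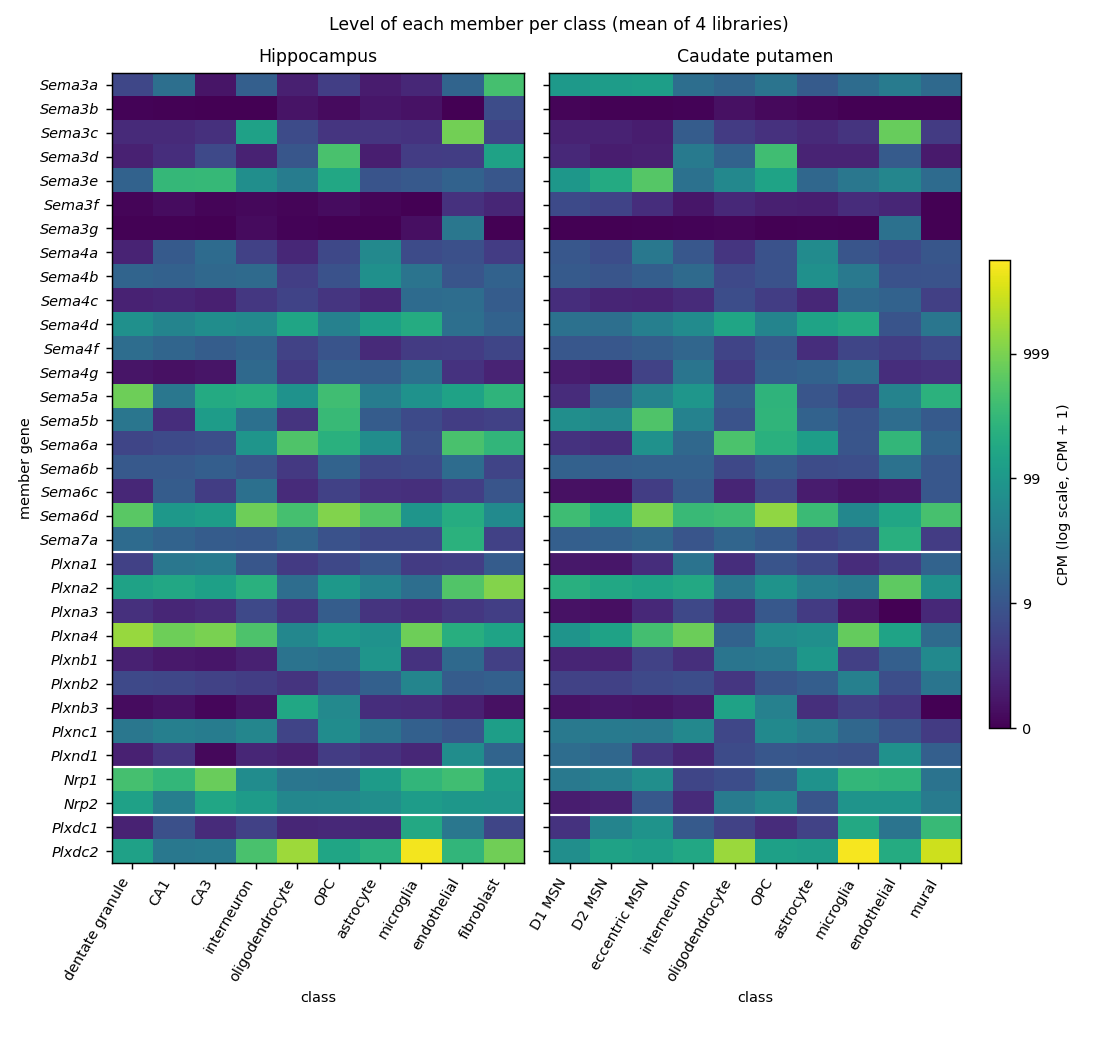
Mean level of each of the 33 members (vertical axis) in each class (horizontal axis) of the hippocampus and the caudate putamen, as CPM on a log scale over 4 libraries per region. White lines separate semaphorins, plexins, neuropilins and the plexin domain containing genes. Plxdc2 in microglia, Sema6d in OPCs and Plxna4 in neurons and microglia stand out as bright cells, and Sema3b and Sema3f stay dark.

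Among the secreted ligands, Sema3g and Sema3c belonged to endothelial nuclei in both regions. Sema3g (chromosome 14, 31217860 to 31230352 in GRCm38) stood at 57.3 and 29.5 CPM at 3 months and 21.9 and 11.5 CPM at 21 months in hippocampal endothelial nuclei. In those of the caudate putamen it stood at 45.4 and 17.8 CPM at 3 months and 34.2 and 0 CPM at 21 months. These levels rest on 46, 15, 28 and 2 UMIs in hippocampus and on 14, 5, 13 and 0 UMIs in caudate putamen. The endothelial mean was 318 times the mean over the other 9 classes in hippocampus and 585 times in caudate putamen. The old caudate putamen library with no UMI held 40 endothelial nuclei.

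Sema3c stood at 745 and 1121 CPM at 3 months and 770.5 and 886 CPM at 21 months in hippocampal endothelial nuclei, 49.0 times the mean of the other classes. The next class was the hippocampal interneurons, at 137 ± 40.9 CPM. In caudate putamen endothelial nuclei Sema3c stood at 1084 and 745 CPM at 3 months and 648 and 575 CPM at 21 months, 239.6 times the mean of the others, and striatal interneurons came next at 11.3 ± 3.99 CPM. In both regions every endothelial library lay above every library of the next class.

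Sema3d, a secreted ligand, marked oligodendrocyte precursors (OPCs). It stood at 470.5 and 427 CPM at 3 months and 463 and 507 CPM at 21 months in hippocampal OPCs and at 474 and 385 CPM at 3 months and 411 and 334 CPM at 21 months in those of the caudate putamen. These means were 24.2 and 56.0 times those of the other classes. Hippocampal fibroblasts held the next level, 145 ± 61.7 CPM. Sema3a, the archetypal repulsive semaphorin, was highest in hippocampal fibroblasts, at 561 and 222 CPM at 3 months and 486 and 461 CPM at 21 months, 61.5 times the mean of the other classes. The second young library was the low one, and all 4 libraries lay above those of CA1 neurons, which came next. Sema3a of the caudate putamen was instead spread over the spiny neurons, with 127 ± 21.5 CPM in eccentric, 119 ± 23.8 in D2 and 105 ± 11.7 in D1 medium spiny neurons (the neurons carrying dopamine receptor Drd2 or Drd1). The libraries of the eccentric and D2 neurons overlapped.

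Sema3e, the ligand of Plxnd1, was highest in neurons. In hippocampus CA3 neurons held 319 ± 12.4 CPM and CA1 neurons 309.7 ± 21.6 CPM, and their libraries overlapped. Dentate granule neurons held 14.1 ± 8.20 CPM. Eccentric medium spiny neurons of the caudate putamen, a minor type apart from D1 and D2, held 567 and 615 CPM at 3 months and 508 and 583 CPM at 21 months. That mean of 568 CPM was 8.04 times that of the other classes, and D2 neurons came next at 193 ± 20.8 CPM. OPCs held 178 ± 35.0 CPM in hippocampus and 151 ± 18.0 CPM in caudate putamen. The receptor Plxnd1 was endothelial: 71.0 and 86.6 CPM at 3 months and 63.5 and 51.8 CPM at 21 months in hippocampus and 90.9 and 60.6 CPM at 3 months and 76.3 and 81.3 CPM at 21 months in caudate putamen. These means were 20.7 and 7.99 times those of the other classes. D1 medium spiny neurons came second in the caudate putamen, at 21.2 ± 1.41 CPM.

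The class 4 ligands span the membrane. Sema4a and Sema4b peaked in astrocytes of both regions: Sema4a at 57.4 ± 3.34 CPM in hippocampus and 63.5 ± 5.19 in caudate putamen, Sema4b at 74.4 ± 9.26 and 74.9 ± 4.87 CPM. Sema4d, the ligand of Plxnb1, was broad, with 204 ± 23.2 CPM in hippocampal microglia and 158 ± 8.12 CPM in oligodendrocytes, and 194 ± 29.1 and 159.5 ± 6.56 CPM in those of the caudate putamen. The class B plexins separated by glial type. Plxnb1 was highest in astrocytes (90.8 ± 8.71 and 96.8 ± 13.8 CPM in hippocampus and caudate putamen), Plxnb2 in microglia (49.5 ± 3.83 and 41.5 ± 4.04 CPM) and Plxnb3 in oligodendrocytes. Plxnb3 stood at 189.8 and 174 CPM at 3 months and 166 and 157 CPM at 21 months in hippocampal oligodendrocytes and at 175 and 162 CPM at 3 months and 130.3 and 112 CPM at 21 months in those of the caudate putamen, 24.2 and 23.4 times the mean of the other classes. OPCs came next in both regions. Sema4c, Sema4f and Sema4g stayed at or below a mean of 27.4 CPM in the 10 classes of each region.

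Sema5a and Sema5b, the semaphorins with thrombospondin repeats, differed between neuron types. Sema5a reached 821 and 780.0 CPM at 3 months and 899 and 893 CPM at 21 months in dentate granule neurons, whereas CA1 neurons held 29.9 ± 7.61 CPM and D1 medium spiny neurons 2.02 ± 0.572 CPM. OPCs held 398 ± 59.2 CPM in hippocampus and 277 ± 21.5 CPM in caudate putamen. Sema5b stood at 309.8 and 372 CPM at 3 months and 336 and 302 CPM at 21 months in hippocampal OPCs, 14.8 times the mean of the other classes. In the caudate putamen it was highest in eccentric medium spiny neurons, at 505 and 539.7 CPM at 3 months and 474 and 596 CPM at 21 months, 9.29 times the mean of the others, with OPCs next at 279.8 ± 24.9 CPM.

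Of the class 6 ligands, which bind class A plexins, Sema6d had a mean above 10 CPM in all 10 classes of each region. It was highest in OPCs, at 1102 ± 97.3 CPM in hippocampus and 1334 ± 149 CPM in caudate putamen. Sema6a was highest in oligodendrocytes (515 ± 75.8 and 484 ± 60.6 CPM), and its libraries overlapped those of endothelial nuclei in both regions. It was low in dentate granule neurons, at 5.06 ± 2.04 CPM. Sema6b and Sema6c stayed at or below a mean of 25.1 CPM in the 10 classes of each region. Sema7a, the membrane-anchored ligand of Plxnc1, stood at 243 and 368 CPM at 3 months and 198 and 184 CPM at 21 months in hippocampal endothelial nuclei and at 305 and 249.6 CPM at 3 months and 187 and 169 CPM at 21 months in those of the caudate putamen. These means were 23.7 and 21.9 times those of the other classes. Plxnc1 itself peaked in hippocampal fibroblasts (126 ± 33.3 CPM) and in OPCs of the caudate putamen (60.1 ± 8.20 CPM, overlapping the striatal interneurons).

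The class A plexins Plxna2 and Plxna4 exceeded 10 CPM in all 10 classes of each region. Plxna4 was highest in dentate granule neurons (1489 ± 35.5 CPM) and in striatal interneurons (818 ± 15.1 CPM), with microglia of the caudate putamen at 726 ± 43.5 CPM. Plxna2 was highest in fibroblasts in hippocampus (1143 ± 191 CPM) and in endothelial nuclei in caudate putamen (650.4 ± 115 CPM). Plxna1 reached 34.1 ± 0.203 CPM in CA3 neurons and 25.5 ± 2.64 CPM in striatal interneurons, and Plxna3 at most 11.6 ± 1.77 CPM, in hippocampal OPCs. Of the neuropilins, Nrp1 was highest among the 10 classes in CA3 neurons in hippocampus (777 ± 79.9 CPM) and in microglia in caudate putamen (301 ± 29.3 CPM, overlapping endothelial nuclei). Nrp2 was highest in CA3 neurons (164 ± 8.64 CPM) and stood at 0.965 ± 0.656 CPM in D1 medium spiny neurons.

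Plxdc2 was led by microglia in both regions, and Plxdc1 by microglia in hippocampus and by mural cells, the contractile cells around vessels, in caudate putamen. Plxdc2 stood at 5110.4 and 4318 CPM at 3 months and 5151 and 4492 CPM at 21 months in hippocampal microglia and at 5296 and 5621 CPM at 3 months and 5138 and 4048 CPM at 21 months in those of the caudate putamen, 11.3 and 8.38 times the mean of the other classes. Plxdc1 stood at 153 and 135 CPM at 3 months and 226 and 213 CPM at 21 months in hippocampal microglia, 29.8 times the mean of the others. In mural cells of the caudate putamen it stood at 282 and 296 CPM at 3 months and 453 and 314 CPM at 21 months, 8.27 times the mean of the others, with microglia next at 184 ± 40.5 CPM.

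Classes with fewer than 20 nuclei in some library held further high levels. For 12 members in hippocampus and 10 in caudate putamen, the mean of such a class over its libraries with at least 10 nuclei exceeded that of every larger class. Nuclei named neuroblast-like came only from the young hippocampal libraries, with 79 and 127 nuclei. Their levels were 1716 and 1358 CPM for Sema5a, 1477 and 1364 for Sema6d, 1751 and 1889 for Plxna4, 1019.8 and 1005 for Nrp1 and 447 and 459.6 for Nrp2. For these 5 genes both libraries lay above the mean of each of the 10 hippocampal classes. Hippocampal macrophages, 12 to 31 nuclei per library, held 1333 and 1346 CPM of Nrp1 at 3 months and 1529.9 and 1088 CPM at 21 months. The same macrophages held 14.2 and 22.7 CPM of Plxdc2 at 3 months and 186 and 64.0 CPM at 21 months, below all 4 microglial libraries. Hippocampal mural cells, 12 to 66 nuclei per library, held 199 and 416 CPM of Plxdc1 at 3 months and 353 and 216 CPM at 21 months, with a mean above that of microglia and overlapping libraries. Hippocampal Cajal-Retzius nuclei, 10 to 83 per library, held a mean of 80.2 CPM of Plxnd1 (50 UMIs), beside 68.2 CPM in endothelial nuclei. Fibroblasts of the caudate putamen held 309.7 CPM of Nrp1 in 1 young library (34 nuclei) and 732 CPM in 1 old library (21 nuclei). Choroid plexus nuclei of the caudate putamen (61 and 71 in 2 libraries) held the highest Sema3b and Sema3f levels of any class, with means of 23.2 and 19.8 CPM.

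The comparison of 21 with 3 months in hippocampus asked which members differ with age in each class. In neurons Sema6d, Sema3e, Sema6a, Sema3c, Nrp1 and Plxdc2 fell and Sema3a rose. In oligodendrocytes Sema3e and Sema6d rose and Sema3d fell, and in OPCs Sema3e rose. Of 235 member and class pairs tested (32 distinct members, since Sema3b passed the filter on low counts in no class), 13 passed an adjusted p of 0.05, 4 higher and 9 lower at 21 months, over 8 distinct members (edgeR quasi-likelihood test, Benjamini-Hochberg over all genes of a class). That is 5.53% of the pairs, beside 0.951% of 123000 gene and class pairs over all genes. The median log2 fold change of the 235 was -0.03, and the pairs that did not pass ranged from -4.03 (Sema3f in oligodendrocytes, at 0 UMIs in both old libraries, so that the value depends on the prior count) to 1.30 (Sema3a in OPCs).

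**Figure D2:**
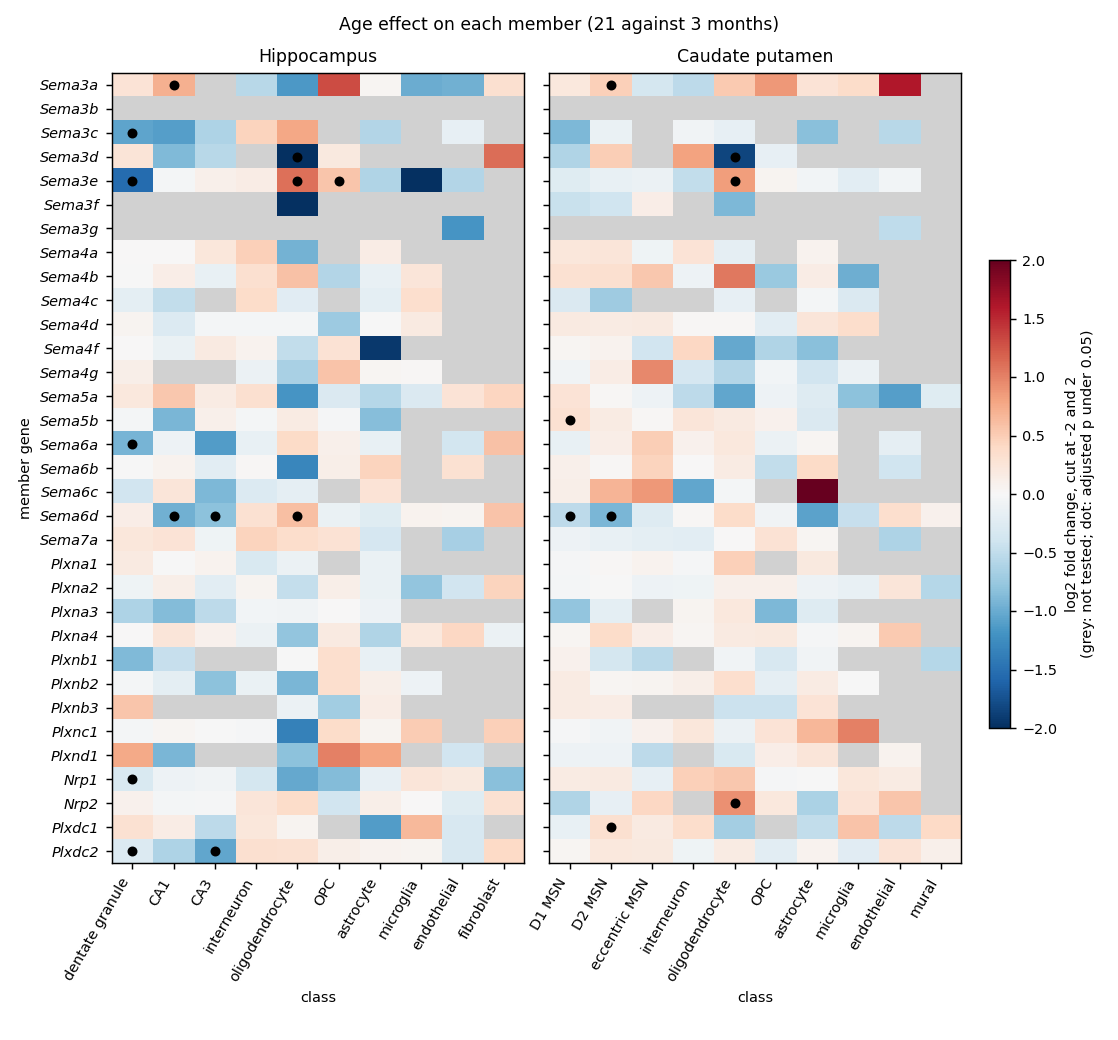
Log2 fold change of each member (vertical axis) from 3 to 21 months in each class (horizontal axis) of both regions, with red higher and blue lower at 21 months (colours end at -2 and 2), grey where the member was not tested, and a dot where the adjusted p was under 0.05. Dots lie on Sema6d in CA1, CA3, D1 and D2 neurons (blue) and in hippocampal oligodendrocytes (red), and on Sema3d in oligodendrocytes of both regions (blue).

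Dentate granule neurons had 5 calls, all lower at 21 months, where 3.41% of all 18059 genes tested were called in either direction. This class pooled clusters that the libraries filled unevenly. In a cluster of 4729 nuclei 80.9% came from 1 library, and in the others the largest library gave 32.9% to 70.1%. The part of this in the calls was not tested. Sema3e (chromosome 5, 14025276 to 14256689) stood at 20.8 and 21.6 CPM at 3 months and 7.07 and 6.93 CPM at 21 months, a log2 fold change of -1.55 (adjusted p = 1.51e-05, SE 0.10). Its young and old libraries were far apart relative to their spread, and the call held without each of the 4 hippocampal libraries. Sema6a stood at 5.82 and 7.61 CPM at 3 months and 3.51 and 3.31 CPM at 21 months, a log2 fold change of -0.93 (adjusted p = 0.00986, SE 0.16), and with doublets retained its adjusted p was 0.0556. Sema3c stood at 2.58 and 2.39 CPM at 3 months and 1.22 and 1.06 CPM at 21 months, a log2 fold change of -1.06 (adjusted p = 0.0214, SE 0.21), at a low level in both ages.

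The receptor Nrp1 stood at 472 and 524 CPM at 3 months and 410.5 and 369 CPM at 21 months in dentate granule neurons, a log2 fold change of -0.30 (adjusted p = 0.0356, SE 0.07). Plxdc2 stood at 146 and 161 CPM at 3 months and 125 and 120.0 CPM at 21 months, a log2 fold change of -0.27 (adjusted p = 0.0345, SE 0.06). For all 5 genes both old libraries lay below both young ones. In the same class the CA1 marker list (6 of 6 detected) summed to 18.4 to 28.2 CPM at 3 months and 14.8 to 15.2 CPM at 21 months, and the neuroblast list (5 of 6 detected, Eomes at 0) to 41.6 to 44.9 CPM at 3 months and 31.2 to 36.3 CPM at 21 months. The CA3 list (6 of 6), from the class with the highest Sema3e and Nrp1 levels of the 10, summed there to 775 to 794 CPM at 3 months and 890.4 to 907 CPM at 21 months. The young neuroblast nuclei held 280.4 and 185 CPM of Sema3e, 604 and 356 CPM of Sema3c and 29.4 and 49.1 CPM of Sema6a, far above granule neurons of either age. The part of such nuclei or RNA in the falls was not tested.

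In CA1 neurons Sema6d (chromosome 2, 124089969 to 124667770) stood at 138 and 126 CPM at 3 months and 67.5 and 58.7 CPM at 21 months, a log2 fold change of -0.96 (adjusted p = 0.000514, SE 0.10). In CA3 neurons it stood at 155 and 156 CPM at 3 months and 84.7 and 85.1 CPM at 21 months, a log2 fold change of -0.82 (adjusted p = 0.00445, SE 0.11). Both old libraries lay below both young ones in each class. Sema3a (chromosome 5, 13125414 to 13602565) went the other way in CA1, with 16.6 and 18.1 CPM at 3 months and 26.1 and 27.4 CPM at 21 months, a log2 fold change of 0.71 (adjusted p = 0.0157, SE 0.13). Plxdc2 in CA3 stood at 41.2 and 49.4 CPM at 3 months and 22.1 and 20.7 CPM at 21 months, a log2 fold change of -1.04 (adjusted p = 0.0138, SE 0.16), with an adjusted p of 0.0507 under DESeq2. The share of all genes called was 0.926% in CA1 and 0.167% in CA3. With equal numbers of nuclei per library the adjusted p was 0.432 for Sema6d and 0.0766 for Sema3a in CA1. Over the alternatives that kept all libraries the log2 fold changes there were -1.37 to -0.95 for Sema6d and 0.63 to 0.84 for Sema3a.

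Lists of other cell types moved with these classes too. In CA1 the neuroblast list (3 to 6 of 6 detected) summed to 34.4 to 36.9 CPM at 3 months and 17.5 to 19.6 CPM at 21 months and the CA3 list (6 of 6) to 272 to 281 CPM at 3 months and 188 to 189 CPM at 21 months. In CA3 the dentate granule list (8 of 8) summed to 413 to 434 CPM at 3 months and 282 to 313 CPM at 21 months and the OPC list (4 to 6 of 6) to 43.1 to 68.6 CPM at 3 months and 29.1 to 37.2 CPM at 21 months. Neuroblasts and OPCs held more Sema6d than either neuron class. In CA3 the microglia list (4 to 8 of 9) summed to 91.2 to 94.5 CPM at 3 months and 85.6 to 90.3 CPM at 21 months. The oligodendrocyte list (10 of 10) summed there to 87.6 to 115 CPM at 3 months and 82.8 to 86.4 CPM at 21 months. Hippocampal microglia and oligodendrocytes held 4768 and 1586 CPM of Plxdc2. The part of such nuclei or RNA in the falls of Sema6d and of Plxdc2 in CA3 was not tested.

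In hippocampal oligodendrocytes 1.08% of all genes were called. Sema3e stood at 19.6 and 27.7 CPM at 3 months and 47.9 and 51.4 CPM at 21 months, a log2 fold change of 1.10 (adjusted p = 0.00455, SE 0.15), opposite in sign to its change in dentate granule neurons. Sema6d stood at 345 and 363 CPM at 3 months and 549 and 491 CPM at 21 months, a log2 fold change of 0.60 (adjusted p = 0.0125, SE 0.09), opposite in sign to CA1 and CA3. These differences between classes were not tested. Sema3d (chromosome 5, 12383385 to 12588948) stood at 15.7 and 13.6 CPM at 3 months and 4.18 and 2.60 CPM at 21 months, a log2 fold change of -2.02 (adjusted p = 0.0184, SE 0.34). The 2 old libraries held 20 and 10 Sema3d UMIs. In these oligodendrocytes the CA3 list (6 of 6 detected) summed to 1414 to 1456 CPM at 3 months and 1626 to 1856 CPM at 21 months and the dentate granule list (8 of 8) to 4588 to 4623 CPM at 3 months and 4199.8 to 4444 CPM at 21 months, and their part in the 3 results was not tested. Dock10 led that dentate granule sum, as given above. In OPCs, where 1.14% of genes were called, Sema3e stood at 153 and 144 CPM at 3 months and 217 and 197 CPM at 21 months, a log2 fold change of 0.56 (adjusted p = 0.0436, SE 0.14). That call was lost without each of the 4 hippocampal libraries, under DESeq2, with equal nuclei per library, with OPCs fitted on the hippocampal libraries alone and with the trend of each library with gene length removed (adjusted p = 0.348 at most). Committed oligodendrocyte precursor markers (5 to 6 of 6 detected) summed to 1323 to 1339 CPM at 3 months and 731 to 868 CPM at 21 months in the same OPCs, and their part in this result was not tested.

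Of the 13 hippocampal calls, 2 remained without old replicate 1 and 2 without old replicate 2: Sema3e in dentate granule neurons and Sema6d in CA1. These fits leave a single library at 21 months and take the spread from the groups that keep 2 libraries. For the neurons that is the young hippocampal group alone. No call changed sign in any of these fits. Counted anew, the member and class pairs called without old replicate 1 and without old replicate 2 were 2 and 3, and without young replicate 1 there were 23.

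In the caudate putamen, 8 of 235 member and class pairs passed, 5 higher and 3 lower, over 7 distinct members of 32 tested. That is 3.4% of the pairs, beside 2% of 122894 pairs over all genes, and the median log2 fold change of the 235 was 0.02. The pairs that did not pass ranged from -1.10 (Sema5a in endothelial nuclei) to 2.56 (Sema6c in astrocytes). Sema6d fell in D1 and D2 medium spiny neurons, and Sema3a and Plxdc1 rose in D2 and Sema5b in D1 neurons. In oligodendrocytes Sema3d fell and Sema3e and Nrp2 rose.

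Sema6d stood at 468 and 418 CPM at 3 months and 343 and 285 CPM at 21 months in D1 neurons, a log2 fold change of -0.52 (adjusted p = 0.0288, SE 0.10). In D2 neurons it stood at 259 and 232 CPM at 3 months and 147 and 118 CPM at 21 months, a log2 fold change of -0.91 (adjusted p = 0.0187, SE 0.12). In both classes the old libraries lay below the young ones. Sema3a in D2 neurons stood at 94.4 and 102 CPM at 3 months and 140.2 and 138 CPM at 21 months, a log2 fold change of 0.48 (adjusted p = 0.0232, SE 0.07), in the same direction as in CA1. Plxdc1 in D2 neurons stood at 44.5 and 42.0 CPM at 3 months and 53.1 and 56.3 CPM at 21 months, a log2 fold change of 0.32 (adjusted p = 0.0394, SE 0.06), and with the length trend removed its adjusted p was 0.055. Its log2 fold change was 0.29 to 0.32 over the alternatives that kept all libraries.

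Sema5b in D1 neurons stood at 65.1 and 60.2 CPM at 3 months and 79.4 and 78.1 CPM at 21 months, a log2 fold change of 0.30 (adjusted p = 0.0288, SE 0.07). The share of all genes called was 6.53% in D1 and 4.62% in D2 neurons. Whether D1 and D2 neurons differ in these age effects was not tested. In D2 neurons the mural list (9 of 9 detected) summed to 15.6 to 17.8 CPM at 3 months and 20.8 to 21.4 CPM at 21 months, and mural cells held the highest Plxdc1 level of the region. In D1 neurons the eccentric neuron list (7 of 7 detected), from the class with the highest Sema5b level, summed to 164 to 172 CPM at 3 months and 132 to 133 CPM at 21 months. The OPC list (6 of 6), from the class with the next Sema5b level, went the other way there. It summed to 333 to 343 CPM at 3 months and 392 to 418 CPM at 21 months. The part of such nuclei in these results was not tested.

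In oligodendrocytes of the caudate putamen, where 1.73% of genes were called, Sema3d stood at 24.7 and 19.2 CPM at 3 months and 4.51 and 7.35 CPM at 21 months, a log2 fold change of -1.83 (adjusted p = 0.00412, SE 0.26). Sema3e stood at 40.7 and 39.7 CPM at 3 months and 65.2 and 72.8 CPM at 21 months, a log2 fold change of 0.83 (adjusted p = 0.0086, SE 0.13), and with equal nuclei per library its adjusted p was 0.0509. The receptor Nrp2 (chromosome 1, 62703285 to 62818695) stood at 27.8 and 22.4 CPM at 3 months and 47.5 and 43.1 CPM at 21 months, a log2 fold change of 0.91 (adjusted p = 0.00497, SE 0.13). The old libraries lay apart from the young ones for all 3 genes.

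Of the 8 calls in the caudate putamen, 1 remained without young replicate 2, the library whose header names another program version: Sema3d in oligodendrocytes. Without young replicate 1, 2 remained: Nrp2 in oligodendrocytes and Sema5b in D1 neurons. Without old replicate 1, 5 remained, and without old replicate 2, 3 did. Sema6d in D2 neurons, for example, had log2 fold changes of -1.08 to -0.75 over all fits without a library, with an adjusted p of at most 0.0667. No direction changed.

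Averaging the age effects of both regions asked which members differ with age in glia over 4 young and 4 old libraries. All 6 calls but the microglial rise of Plxdc1 lay in oligodendrocytes, where Sema3e, Sema6d and Nrp2 rose and Sema3d and Sema5a fell. Of 100 member and class pairs tested in oligodendrocytes, OPCs, astrocytes and microglia (31 distinct members), 6 passed, 4 higher and 2 lower. That is 6% beside 3.44% of 50042 pairs over all genes. Among all genes 5.87% were called in oligodendrocytes and 1.39% in microglia. The 4 young and 4 old libraries of these fits are those of the single-region results above, so the averages are no independent support for them. The fits took the 8 libraries as independent. Whether the regions came from the same mice is not given, and the p-values do not account for such sharing. The same holds for the other comparisons over both regions below.

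In oligodendrocytes Sema3e changed by 0.96 (adjusted p = 0.000226, SE 0.10) and Sema3d by -1.92 (adjusted p = 0.000351, SE 0.21) on the log2 scale. Sema6d changed by 0.49 (adjusted p = 0.00129, SE 0.07), with 339.6 and 347 CPM at 3 months and 443 and 414 CPM at 21 months in the caudate putamen beside the hippocampal values above. Nrp2 changed by 0.64 (adjusted p = 0.00248, SE 0.09), with 45.6 and 48.4 CPM at 3 months and 58.2 and 59.2 CPM at 21 months in hippocampus. For these 4 genes the young and the old libraries did not overlap in either region, and the calls held without each of the 8 libraries. The 3 secreted ligands Sema3d, Sema3a and Sema3e lie close together on chromosome 5, and the first and last of them changed in opposite directions in oligodendrocytes.

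Sema5a (chromosome 15, 32244810 to 32696341) stood in oligodendrocytes at 85.1 and 144 CPM at 3 months and 45.6 and 52.7 CPM at 21 months in hippocampus and at 20.4 and 11.3 CPM at 3 months and 6.38 and 8.27 CPM at 21 months in caudate putamen, a log2 fold change of -1.11 (adjusted p = 0.0288, SE 0.22). This call held without 3 of the 8 libraries and was lost (adjusted p = 0.104 at most) without either old hippocampal, either old caudate putamen or the first young caudate putamen library. With equal nuclei per library the change was -1.75. The part of neuronal Sema5a RNA in it was not tested. In microglia Plxdc1 (chromosome 11, 97923238 to 97986444) stood at 153 and 135 CPM at 3 months and 226 and 213 CPM at 21 months in hippocampus and at 151 and 147 CPM at 3 months and 212 and 226 CPM at 21 months in caudate putamen, a log2 fold change of 0.61 (adjusted p = 0.00435, SE 0.11). All 4 old libraries lay above all 4 young ones, and the adjusted p was 0.0694 under DESeq2.

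OPCs held far more Sema3d than oligodendrocytes. The OPC list (6 of 6 detected) summed in oligodendrocytes to 62.7 to 63.8 CPM at 3 months and 46.2 to 52.5 CPM at 21 months in hippocampus and to 68.1 to 69.0 CPM at 3 months and 67.8 to 94.8 CPM at 21 months in caudate putamen. The CA1 list (6 of 6) summed in oligodendrocytes to 154 to 159 CPM at 3 months and 33.1 to 45.4 CPM at 21 months in hippocampus and to 163 to 211 CPM at 3 months and 67.5 to 78.6 CPM at 21 months in caudate putamen. No class of the caudate putamen was named CA1, so this sum in oligodendrocytes need not come from CA1 neurons. The part of both lists in these results was not tested. In microglia of the caudate putamen the mural list (3 to 9 of 9 detected) summed to 11.6 to 14.9 CPM at 3 months and 30.3 to 46.2 CPM at 21 months. In those of the hippocampus it summed to 15.3 to 22.6 CPM at 3 months and 14.9 to 26.2 CPM at 21 months. The part of mural RNA in the Plxdc1 rise was not tested.

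**Figure D3:**
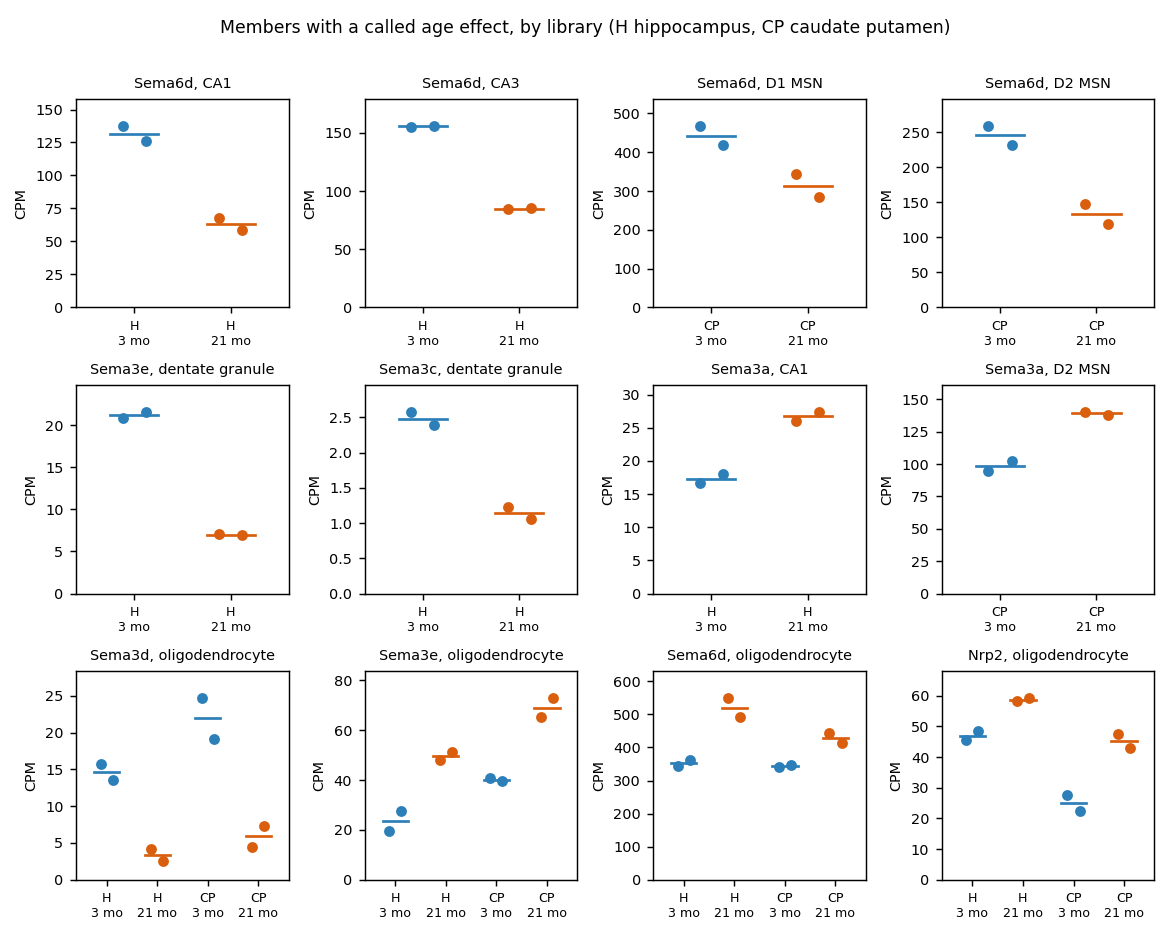
Levels in CPM (vertical axes, starting at 0) of 12 member and class pairs at 3 months (blue) and 21 months (orange), with 1 point per library and a line at the mean of 2 libraries. H is hippocampus and CP caudate putamen. Sema6d fell in 4 neuron classes, and Sema3d fell and Sema3e rose in oligodendrocytes of both regions.

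Over the 3 age comparisons 12 of the 33 members were called in some class, and 21 in none. No plexin was among the 12: with edgeR 0 of 131 plexin and class pairs passed within a region and 0 of 30 averaged over regions, where 11 and 7 had an unadjusted p under 0.05. DESeq2 also called 0 of both. Over all genes 0.951% of pairs passed in hippocampus, 2% in caudate putamen and 3.44% averaged over regions, so a count of 0 among plexins lies near the background.

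Whether a member's age effect differed between the regions was tested in these 4 classes. With edgeR, 0 of 100 member and class pairs passed, as did 0% of 50042 pairs over all genes, and 11 of the 100 had an unadjusted p under 0.05. DESeq2 also called 0 members. For Nrp2 in oligodendrocytes the age effect was 0.36 in hippocampus and 0.91 in caudate putamen, and their difference of 0.55 had an adjusted p of 0.674, the lowest of the 100. For Sema3e in OPCs it was 0.56 and 0.06, with an adjusted p of 0.809 for the difference. Over all genes 2862 pairs had an unadjusted p under 0.05. Other settings called 1 member each. Nrp1 in oligodendrocytes passed without the filter on low counts (a difference of 1.57, adjusted p = 0.000867) and without young hippocampus replicate 1 (1.97, adjusted p = 0.0490). Sema4d in OPCs passed with doublets retained (1.69, adjusted p = 0.000931).

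The comparison of caudate putamen with hippocampus in glia asked which members differ between regions in the same class. Of 100 member and class pairs, 32 passed, 16 higher in each region, over 17 distinct members, beside 12.9% of 50042 pairs over all genes. Sema3a was higher in the caudate putamen in all 4 glial classes and Sema5a was higher in the hippocampus in all 4. Sema3e was higher in the caudate putamen in oligodendrocytes, astrocytes and microglia. Region, dissection and the free RNA of each tissue cannot be told apart here. The classes were also not cut alike in the regions. An oligodendrocyte-like cluster of 2051 nuclei, in the caudate putamen only, was left unnamed beside the 10054 nuclei of that class. A hippocampal cluster of 847 nuclei scoring highest for astrocytes was left unnamed. A caudate putamen cluster of 168 nuclei that shared leading genes with it (Slc6a11, Etnppl, Itih3) was kept. The part of this in the astrocyte results was not tested.

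Sema3a in oligodendrocytes ranged over 0.519 to 1.68 CPM in the 4 hippocampal libraries and 11.0 to 22.9 CPM in the 4 caudate putamen libraries, a log2 fold change of 3.82 (adjusted p = 5.87e-06, SE 0.31). In astrocytes it ranged over 0.267 to 1.35 CPM in the 4 hippocampal libraries and 8.70 to 14.0 CPM in the 4 caudate putamen libraries, a change of 3.36 (adjusted p = 3.63e-06, SE 0.32). In microglia it ranged over 0 to 3.39 CPM in the 4 hippocampal libraries and 12.1 to 31.9 CPM in the 4 caudate putamen libraries, a change of 3.69 (adjusted p = 0.000705, SE 0.64). In OPCs it ranged over 0.898 to 8.82 CPM in the 4 hippocampal libraries and 12.5 to 41.8 CPM in the 4 caudate putamen libraries, a change of 2.72 (adjusted p = 6.97e-07, SE 0.35). The libraries of the regions did not overlap in any of the 4 classes. The hippocampal levels rest on few molecules: 0 to 2 UMIs per library in microglia, 1 to 8 in OPCs and 1 to 11 in astrocytes. Without old hippocampus replicate 1 the change was 5.21 in microglia and 4.25 in astrocytes, and without young hippocampus replicate 2 it was 3.39 in OPCs. With doublets retained it was 5.04 in microglia, 5.34 in astrocytes and 3.43 in OPCs, and with equal nuclei per library 4.56 in OPCs. All of these were called. Medium spiny neurons held 111 CPM of Sema3a and dentate granule neurons 5.36 CPM. The level in the caudate putamen was 14.2% of that in medium spiny neurons in oligodendrocytes, 9.69% in astrocytes, 17.9% in microglia and 24.4% in OPCs.

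Sema5a in microglia ranged over 38.3 to 104 CPM in the 4 hippocampal libraries and 1.73 to 5.82 CPM in the 4 caudate putamen libraries, a log2 fold change of -4.31 (adjusted p = 1.08e-06, SE 0.36). In oligodendrocytes it ranged over 45.6 to 144 CPM in the 4 hippocampal libraries and 6.38 to 20.4 CPM in the 4 caudate putamen libraries, a change of -2.83 (adjusted p = 0.000102, SE 0.22). The changes were -2.04 (adjusted p = 0.000728, SE 0.26) in astrocytes and -0.56 (adjusted p = 5.43e-06, SE 0.08) in OPCs. Endothelial nuclei, which are not glia and are counted apart, had Sema5a as their only called member, with a change of -1.65 (adjusted p = 0.00353, SE 0.23) where 1.81% of genes were called. With doublets retained the change was -1.95 in oligodendrocytes and -2.51 in endothelial nuclei. With the unnamed oligodendrocyte-like cluster of the caudate putamen added, the change was -1.38 in oligodendrocytes. The hippocampal levels were 9.52% of that in dentate granule neurons in microglia, 9.64% in oligodendrocytes, 4.25% in astrocytes, 46.9% in OPCs and 17.1% in endothelial nuclei.

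**Figure D4:**
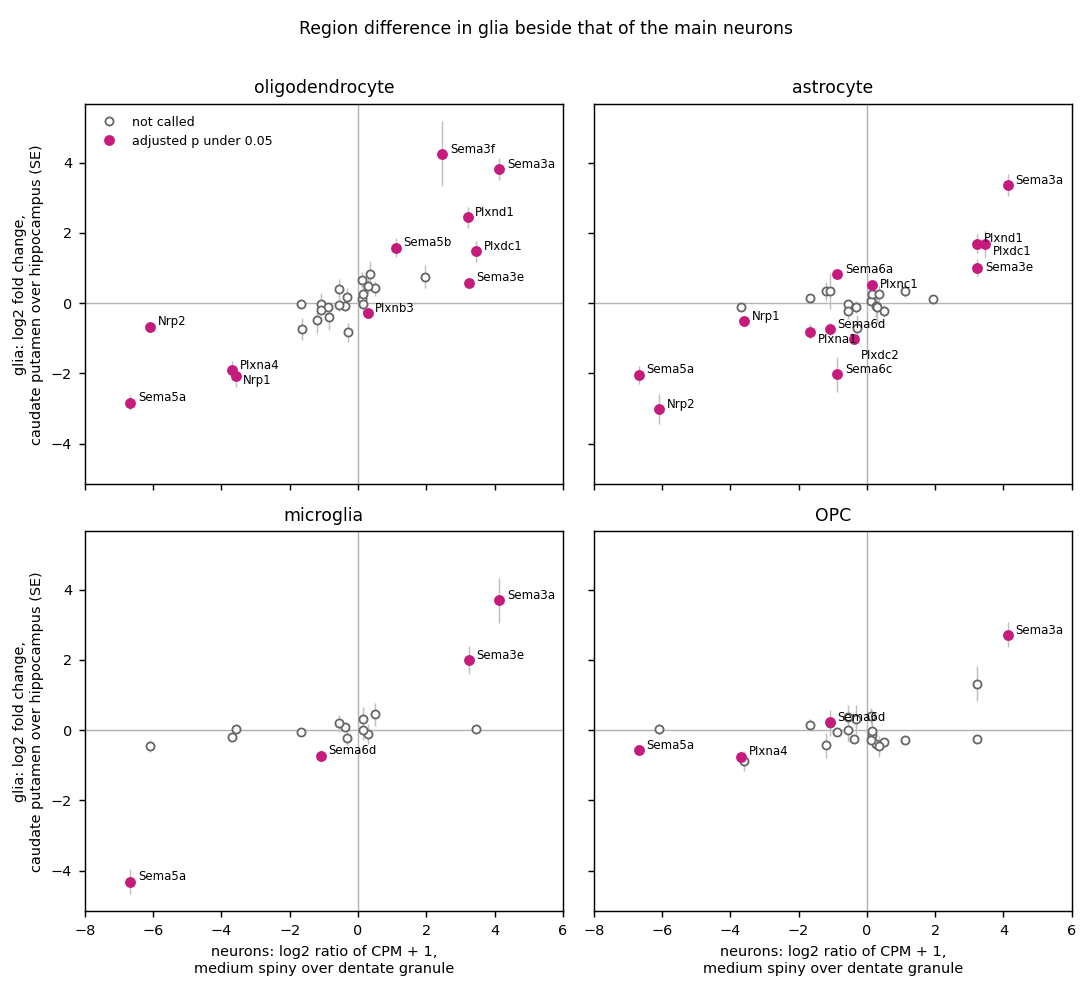
Log2 fold change of each member between caudate putamen and hippocampus in 4 glial classes (vertical axes, bars SE) against the log2 ratio of its level in medium spiny over dentate granule neurons (horizontal axes, CPM plus 1). Filled points passed an adjusted p of 0.05. Sema3a lies highest to the right of zero among called members in 3 panels and second to Sema3f in oligodendrocytes, and Sema5a lies farthest left and below zero in every panel.

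Over all 32 calls, 29 had the same direction as the difference between the main neurons of the regions, medium spiny against dentate granule. Dentate granule neurons alone stood for the hippocampus here. They held 14.1 CPM of Sema3e beside 142 CPM in medium spiny neurons, but CA1 and CA3 neurons held more than either, as given above. For Plxnc1 the neuronal levels were close, at 29.7 CPM in dentate granule and 33.1 CPM in medium spiny neurons. Over all genes 5320 of 6471 calls (82.2%) did so. Across members the glial and the neuronal log2 differences had a Pearson r of 0.826 in oligodendrocytes (31 members), 0.799 in astrocytes (29), 0.759 in microglia (16) and 0.55 in OPCs (24). Spearman's rho in the same order was 0.855, 0.62, 0.721 and 0.23. Across all genes tested r was 0.682, 0.51, 0.68 and 0.404 and rho 0.531, 0.377, 0.46 and 0.295. These are descriptions across genes that share the same libraries. The exceptions were Sema6a in astrocytes, Sema6d in OPCs and Plxnb3 in oligodendrocytes. Sema6a in astrocytes ranged over 59.9 to 74.3 CPM in the 4 hippocampal libraries and 106 to 141 CPM in the 4 caudate putamen libraries, a log2 fold change of 0.82 (adjusted p = 1.96e-05, SE 0.09), while medium spiny neurons held 2.33 CPM and dentate granule neurons 5.06 CPM. Plxnb3 in oligodendrocytes changed by -0.29 (adjusted p = 0.0243, SE 0.08) and Sema6d in OPCs by 0.24 (adjusted p = 0.0322, SE 0.07), and in both cases the libraries of the regions overlapped. The Plxnb3 call was lost under DESeq2 (adjusted p = 0.0589) and held in 2 of the 8 fits without a library, those without old caudate putamen replicate 1 and young hippocampus replicate 2 (adjusted p = 0.156 at most in the other 6). The Sema6d call was lost under DESeq2 and with doublets retained (adjusted p = 0.638 at most), and without replicate 2 of each of the 4 groups (0.429 at most). The part of neuronal RNA in these glial differences was not tested.

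The receptors differed by class. In oligodendrocytes, where 14.2% of all genes were called, Nrp1 changed by -2.09 (adjusted p = 0.00189, SE 0.29), Nrp2 by -0.67 (adjusted p = 0.000423, SE 0.09) and Plxna4 by -1.91 (adjusted p = 0.0031, SE 0.27), all higher in hippocampus. Their hippocampal levels were 6.49% of that in dentate granule neurons for Nrp1, 37.5% for Nrp2 and 3.59% for Plxna4. The median marker gene of those neurons stood at 10.0% to 20.3% in hippocampal oligodendrocytes. The part of neuronal RNA in these 3 results was not tested. Plxnd1 in oligodendrocytes changed by 2.44 (adjusted p = 0.000157, SE 0.30) and Plxdc1 by 1.47 (adjusted p = 0.0058, SE 0.30), both higher in the caudate putamen. Both were low: Plxnd1 ranged over 0.519 to 1.76 CPM in the hippocampal libraries and 4.62 to 7.59 CPM in those of the caudate putamen. Plxdc1 ranged over 1.40 to 1.58 CPM in the hippocampal libraries and 2.42 to 5.87 CPM in those of the caudate putamen. Among ligands, Sema5b changed by 1.58 (adjusted p = 0.00158, SE 0.27), Sema3e by 0.58 (adjusted p = 0.00165, SE 0.10) and Sema3f by 4.25 (adjusted p = 0.00955, SE 0.92). Sema3f rested on 0 and 3 UMIs (young) and 0 and 0 (old) in the hippocampal oligodendrocyte libraries, so its fitted value depends on the prior count and is no measure of size. Over the 4 libraries of a region its pooled level was 9.36 times higher in the caudate putamen (48 against 3 UMIs, exact 95% interval 3.02 to 46.97, covering counting error only).

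In astrocytes, where 21.6% of genes were called, Nrp2 ranged over 51.6 to 91.5 CPM in the 4 hippocampal libraries and 3.16 to 16.1 CPM in the 4 caudate putamen libraries, a log2 fold change of -3.02 (adjusted p = 0.00892, SE 0.44), and without old caudate putamen replicate 1 it was -3.61. Plxdc2 ranged over 227 to 254 CPM in the 4 hippocampal libraries and 111 to 127 CPM in the 4 caudate putamen libraries, a change of -1.02 (adjusted p = 1.9e-07, SE 0.07), with no overlap. Its hippocampal level in astrocytes was above that in dentate granule neurons (174% of it). Plxnd1 changed by 1.70 (adjusted p = 0.000434, SE 0.27), Plxdc1 by 1.69 (adjusted p = 0.004, SE 0.37), Sema3e by 1.01 (adjusted p = 0.00962, SE 0.24) and Plxnc1 by 0.50 (adjusted p = 0.00869, SE 0.12), all higher in the caudate putamen. Of these, Plxdc1 and Plxnd1 were low in both regions. Plxdc1 stood at 0.490 to 2.75 CPM in the hippocampal libraries and 3.16 to 5.53 CPM in those of the caudate putamen. Plxnd1 stood at 1.57 to 3.475 CPM in the hippocampal libraries and 5.81 to 11.979 CPM in those of the caudate putamen. Nrp1 changed by -0.52 (adjusted p = 0.000261, SE 0.08), Plxna1 by -0.81 (adjusted p = 0.0153, SE 0.22), Sema6c by -2.02 (adjusted p = 0.00958, SE 0.50) and Sema6d by -0.74 (adjusted p = 0.0171, SE 0.16), all higher in the hippocampus. Levels of Plxna1 were also low, at 8.33 to 11.6 CPM in the hippocampal libraries and 3.60 to 6.78 CPM in those of the caudate putamen. Plxna1 was lost under DESeq2, with equal nuclei per library (adjusted p = 0.0978 at most) and without old caudate putamen replicate 1, young caudate putamen replicate 2 or old hippocampus replicate 2 (0.0679 at most). Sema6d was lost without each of the 4 young libraries (0.0915 at most). Sema6c was lost under DESeq2 (0.0501) and, with Plxdc1 and Sema3e, without old hippocampus replicate 1 (0.0754, 0.0513 and 0.0841), and Plxnc1 without young caudate putamen replicate 1 (0.058). Plxnc1 overlapped between regions at 3 months (34.6 and 25.7 CPM in caudate putamen and 28.9 and 23.3 in hippocampus) and was apart at 21 months (51.3 and 43.2 against 26.2 and 25.9 CPM), and its difference of age effects did not pass (adjusted p = 0.899). Sema6c rested on 16, 19, 25 and 8 UMIs in the hippocampal astrocyte libraries and on 2 and 0 (young) and 6 and 10 (old) in those of the caudate putamen, and the old libraries of the regions overlapped. Without young caudate putamen replicate 1, which leaves a young library with 0 UMIs, its change was -3.83. With doublets retained the change was 2.73 for Plxdc1 and 2.63 for Sema3e.

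In microglia 6.41% of genes were called. Sema3e stood there at 15.3 and 19.4 CPM at 3 months and 2.02 and 3.31 CPM at 21 months in hippocampus, the old libraries with 1 and 2 UMIs, and at 39.3 and 25.2 CPM at 3 months and 19.9 and 33.0 CPM at 21 months in caudate putamen. The change averaged over ages was 2.00 (adjusted p = 0.00208, SE 0.39), and 3.16 with doublets retained. The regions lay closer at 3 than at 21 months, but the difference of age effects of 2.40 did not pass (adjusted p = 0.999997, unadjusted p = 0.00901). Sema6d changed by -0.72 (adjusted p = 0.00976, SE 0.17). The Sema6d call was lost under DESeq2, with doublets retained (adjusted p = 0.0656 at most) and without old hippocampus replicate 2 (0.0949). In OPCs, where 5.16% of genes were called, Plxna4 changed by -0.75 (adjusted p = 0.00135, SE 0.15), and by -1.61 with doublets retained. Its hippocampal level in OPCs was 7.14% of that in dentate granule neurons. The median marker gene of those neurons stood at 12.2% to 16.1% in hippocampal OPCs. Of the 32 glial calls, 24 separated all 8 libraries by region. These pairs were already chosen as called, and the share over all called genes was not counted. In neither the age nor the region comparisons, 14 members passed in any class: Plxna2, Plxna3, Plxnb1, Plxnb2, Sema3b, Sema3g, all 6 class 4 semaphorins, Sema6b and Sema7a.

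Of the 47 other genes of the pathway (collapsin response mediators, MICAL enzymes, kinases, GTPases and their regulators, coreceptors and other ligands), some passed in the age comparisons. In hippocampus 5 of 324 gene and class pairs passed (1.54% beside 0.951% over all genes), 1 higher and 4 lower, with a median log2 fold change of -0.01. Dpysl3 and Dpysl5, which encode collapsin response mediators, changed by -1.16 (adjusted p = 0.0275) and -1.14 (adjusted p = 0.0162) in CA1 in the edgeR fit. Farp1, a regulator of small GTPases bound by class A plexins, changed by 1.06 (adjusted p = 0.0184) in oligodendrocytes, and the kinase gene Fyn by -0.67 (adjusted p = 0.00346) in OPCs. Committed oligodendrocyte precursor markers were also lower in those OPCs at 21 months, as given above, and their part in the Fyn result was not tested. Dpysl3 is also high in immature neurons, and the neuroblast list in CA1 was lower at 21 months, as given above. The part of such nuclei or RNA in the Dpysl3 result was not tested.

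In the caudate putamen 12 of 325 pathway pairs passed (3.69% beside 2%), 2 higher and 10 lower, with a median of -0.01. Dpysl3 changed by -2.04 (adjusted p = 0.0016) in D1 and by -2.12 (adjusted p = 0.0106) in D2 neurons in the edgeR fit. Farp1 changed by 1.57 (adjusted p = 0.00105) in oligodendrocytes and Vegfa, the vascular growth factor that also binds neuropilins, by -0.96 (adjusted p = 0.0291) in striatal interneurons. Averaged over regions 7 of 134 glial pairs passed (5.22% beside 3.44%), 4 higher and 3 lower. The largest were Flt1, a receptor of that growth factor, at 1.99 (adjusted p = 0.0103) in microglia, Met at 1.45 (adjusted p = 0.0121) in astrocytes, Farp1 at 1.32 (adjusted p = 0.000179) in oligodendrocytes and Rnd3 at 0.58 (adjusted p = 0.0377) in astrocytes. Flt1 is an endothelial marker. The endothelial list in microglia (5 to 8 of 8 detected) summed to 51.7 to 67.8 CPM at 3 months and 99.2 to 127 CPM at 21 months in hippocampus. In microglia of the caudate putamen the ages overlapped, with sums of 32.4 to 74.2 CPM at 3 months and 46.2 to 71.1 CPM at 21 months. The part of endothelial RNA in the Flt1 result was not tested.

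The difference of age effects called 0 of 134 pathway pairs with edgeR. Between regions 27 of 134 passed, 10 higher in the caudate putamen and 17 higher in the hippocampus, which is 20.1% beside the 12.9% over all genes. Serpinf1, the ligand described for Plxdc1 and Plxdc2, changed by -3.27 (adjusted p = 3.04e-05) and the integrin gene Itga1 by -2.49 (adjusted p = 4.62e-06) in astrocytes in the edgeR fit, both higher in hippocampus. Cd72, a receptor described for Sema4d, changed by 2.01 (adjusted p = 0.00802) in oligodendrocytes and Mical2, a MICAL enzyme, by -1.84 (adjusted p = 0.000889) in OPCs.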

How the data were processed

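The files hold raw UMI counts per gene and nucleus, deposited by the authors as filtered 10x matrices. Per the file headers the counts were made with Cell Ranger 6.1.2 in 7 libraries and 7.0.0 in young caudate putamen replicate 2, whereas the submitters' processing notes name Cell Ranger 4.0.0 and mm10. Per the labels' protocols nuclei were released with a lysis buffer, stained with Hoechst, sorted and run on 10x v3.1 chemistry. The raw total was 67205436 to 234811422 UMIs per library.

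Nuclei with fewer than 500 genes (1307) or over 5% mitochondrial UMIs (3) and 10641 scrublet doublets were left out. In young hippocampus replicate 2 scrublet's own threshold was not used and the highest scores were called up to about the expected share (16.1% expected, 15.6% called). Each region was clustered (scanpy 1.11.5, 3000 variable genes without the members, 40 principal components, 20 neighbours, leidenalg 0.10.2 at resolution 1.0). Clusters were named from marker lists. The 11307 nuclei in clusters with no clear name, or led by genes of another class, other tissue or mitochondria, entered no class. Counts were summed per class and library and tested with edgeR 4.0.16 (R 4.3.3; quasi-likelihood, TMM, filterByExpr, robust, Benjamini-Hochberg over all genes of a class, adjusted p under 0.05). Glial and endothelial classes were fitted on all 8 libraries and neurons on the 4 of their region. DESeq2 1.42.0, other filters, doublets retained, other clusterings, equal nuclei and leaving out each library were alternatives. Libraries in a group differed by more than sampling noise. Positions are those of GENCODE vM21 on GRCm38, in which all 33 members were matched by identifier.

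Every member called in a class is named, and levels are given per library for the up to 10 members per region with the highest ratio of a class to the mean of the others. Of the pathway genes up to 4 with the largest called change per comparison are named. The members, the marker and pathway lists and these rules were chosen with earlier results of these data known. Scripts were tested on simulated data.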

Additional observations from a re-analysis of the deposited data

How the results depend on the processing

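Over the alternatives tried for the members named in the comparisons, 910 values kept their direction and their side of the threshold, 91 kept the direction but missed the threshold, and 0 changed sign. Counts of calls are member and class pairs, of which 13, 8, 6, 0 and 32 passed in the 5 comparisons of the report. Without the filter on low counts there were 27 for age in hippocampus, 21 in caudate putamen, 18 averaged over regions and 1 for the difference of age effects. With doublets retained there were 53 between regions (27 higher in the caudate putamen and 26 higher in the hippocampus) and 1 for the difference, and the members at least 4 times above the other classes were 18 in hippocampus (17 of them shared with the reported 22) and 17 in caudate putamen (16 shared). Leaving out each library gave 2 to 23 calls for age in hippocampus, 1 to 7 in caudate putamen, 5 to 13 averaged over regions (13 without young hippocampus replicate 1), 0 to 1 for the difference (1 without that same library) and 28 to 35 between regions. It gave 20 to 23 members 4 times above the others in hippocampus and 22 to 23 in caudate putamen. The cause was not tested. DESeq2 called 12, 10, 6, 0 and 27 pairs.

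The labels give replicate numbers but do not say that a number marks a shared litter, batch or day. Same-numbered young and old libraries deviated with a median correlation over classes of -0.008 in hippocampus and 0.154 in caudate putamen, over 2 pairs per region. The correlations ranged from -0.204 to 0.256 in hippocampus. In the caudate putamen they were positive in all 10 classes, at 0.021 to 0.4, with 0.255 in D1 and 0.359 in D2 neurons. A replicate block gave 18 pairs called for age in hippocampus, 18 in caudate putamen, 9 averaged over regions, 0 for the difference and 35 between regions. Further alternatives were chosen after seeing the data, removal of each library's trend with gene length and addition of the unnamed oligodendrocyte-like cluster of the caudate putamen. The first gave 14, 7, 7, 0 and 33 calls and the second 13, 8, 6, 0 and 33. Fitting glia within a region could be applied to the single-region age effects only, with 12 and 9 calls.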

Other observations

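Limits of these values are the following. Each group had 2 libraries, and each library pooled nuclei of 1 male and 1 female, so animals cannot be told apart. The effect of age on a gene rose with gene length: over genes the rank correlation was 0.144 in astrocytes, 0.235 in oligodendrocytes, 0.294 in microglia and 0.309 in OPCs in the average over regions. Genes are not independent replicates. Class names were rebuilt from marker lists, and other marker lists may divide the nuclei differently. Levels in nuclei are not levels of protein or of receptor at the cell surface.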
